A study of Arabidopsis thaliana with 32 samples.

Results

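A set of 63 loci had less RNA in Arabidopsis roots at 8 d than at 4 d in each of the 4 settings of a spaceflight experiment, wild type and mutant, in orbit and on the ground. They were selected on these measured values. A locus was taken when the authors' deposited tables listed it for age in all 4 settings and gave a lower 8 d than 4 d value in each. Of the 69 loci that met this, 6 were left out because the rule excludes 13 named genes of Rubisco, phosphate, iron and defensin-like groups, which leaves 63 of the 4882 loci listed in any of the 11 deposited tables. The falls with age are therefore a description and carry no test. Of the 63 loci, 58 carry a single gene name, 2 merge a pair of genes and 3 are unnamed loci of the mitochondrial genome.

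The RNA came from whole dissected roots of Arabidopsis thaliana seedlings grown on upright plates of Phytagel with dilute MS salts. Spaceflight (FLT) seedlings grew under LED light in plant growth hardware (Veggie) on the International Space Station, and ground control (GC) seedlings grew in the same hardware on Earth, with a delay and with the station's temperature, carbon dioxide and light copied. Both were fixed in RNAlater. The 8 groups are sku5 and WS roots of 8 d and 4 d, each from spaceflight and from the ground, with 4 samples per group. WS is the wild-type accession Wassilewskija and sku5 is a mutant of SKU5, a gene for a cell wall and membrane protein that acts on the direction of root growth. Each sample was a pool, of 2 to 3 roots from plants of 8 d or of 5 to 8 from plants of 4 d, so the ages also differ in how many plants a sample holds. As a check of the labels, the authors' deposited tables put SKU5 at 14.2 FPKM in sku5 against 61.9 FPKM in WS roots in spaceflight at 8 d, at 23.5 against 78.6 FPKM on the ground at 8 d, and at 10.4 against 38.9 FPKM on the ground at 4 d. The deposited tables give 1 FPKM value (a level scaled to transcript length and library size) for each group, so the depth of each library and the spread between replicates are unknown here. Only loci that the authors' Cuffdiff test called, at a q-value under 0.05, are listed. The standard errors below were obtained by dividing each deposited log2 fold change by its Cuffdiff statistic and are a rough scale. In whole roots, fewer cells of a type and less RNA per cell cannot be told apart.

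Between these ages a seedling changes from living on what the seed stored to living on light and on nutrients taken up by the root. Fat stored in the seed is turned to sugar through the glyoxylate cycle, stored proteins are cut up by vacuolar proteases, and the root, which at first is little more than a growing tip, elongates and adds mature tissue.

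The short stretches of promoter shown here hold the searched motif whose share among the members most exceeded its share among all promoters. Promoters were taken by gene identifier from the RefSeq annotation of the Columbia reference genome (TAIR10.1), from 250 bases before to 50 after the annotated start of the gene. The plants are WS, and the authors' own coordinates belong to another build. Of 16 motifs searched on both strands, the DRE core ACCGAC, known for cold and drought response, was found in 8 of 56 member promoters, or 14.3%, against 5.70% of 27443 promoters of protein-coding genes. It lay in 7.08% of the 1624 promoters of single genes that fell in at least 1 age table, and in 2.33% of the 86 promoters of loci that rose in all 4. The 60 bases around each match are printed with the match in capitals, written along the strand of the gene.
AT1G09310, chr1:3008744-3008803, plus strand: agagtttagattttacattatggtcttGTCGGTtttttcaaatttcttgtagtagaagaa
AT1G21680, chr1:7612700-7612759, plus strand: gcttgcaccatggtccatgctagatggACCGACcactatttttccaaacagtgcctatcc
GRP-3, chr2:2025977-2026036, plus strand: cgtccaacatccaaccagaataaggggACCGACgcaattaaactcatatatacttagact
CPL3, chr4:460352-460411, plus strand: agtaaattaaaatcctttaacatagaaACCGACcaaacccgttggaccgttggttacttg
AT4G39675, chr4:18413621-18413680, plus strand: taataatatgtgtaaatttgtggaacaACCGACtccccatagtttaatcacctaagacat
AT5G01740, chr5:280548-280607, plus strand: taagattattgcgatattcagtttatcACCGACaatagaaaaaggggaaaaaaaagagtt
AT5G20790, chr5:7041095-7041154, minus strand: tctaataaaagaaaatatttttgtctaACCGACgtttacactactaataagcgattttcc
FLA13, chr5:17760716-17760775, plus strand: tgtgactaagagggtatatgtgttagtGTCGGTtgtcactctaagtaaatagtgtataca

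In AT1G09310, AT5G01740 and FLA13, 3 of these 8 promoters, the DRE match overlaps a match to the high-affinity auxin response element TGTCGG, so the letters serve both counts. The G-box CACGTG, bound by bZIP and bHLH factors, was found in 14.3% of member promoters against 7.68% of all promoters and 11.8% of those falling in at least 1 age table. All 5 member promoters with the ABRE core ACGTGTC, known for abscisic acid response, have it overlapping a G-box. Full promoters are shown for 4 members that are described in the text. MT2A has the evening element AAAATATCT of clock-controlled genes at 2 places, and 2 or more were found in 0.0984% of all promoters. CPL3 has the MSA core CAACGG of mitotic genes at 3 places, and 3 or more were found in 0.0401% of all promoters. The repeats of MT2A and CPL3 were picked after they were seen, among all motifs searched, so nothing is read from their rarity. GH3.3 has the auxin response element TGTCTC at 1 place. PSBQ-2 has the G-box at 2, and 2 or more were found in 1.06% of all promoters. Capitals mark these matches.
MT2A, chr3:2890525-2890824, minus strand: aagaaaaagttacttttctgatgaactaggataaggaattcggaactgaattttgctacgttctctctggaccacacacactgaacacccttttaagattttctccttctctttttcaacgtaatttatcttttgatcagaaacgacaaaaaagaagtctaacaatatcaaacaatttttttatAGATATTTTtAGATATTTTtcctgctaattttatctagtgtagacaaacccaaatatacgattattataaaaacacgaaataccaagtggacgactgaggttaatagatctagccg
CPL3, chr4:460145-460444, plus strand: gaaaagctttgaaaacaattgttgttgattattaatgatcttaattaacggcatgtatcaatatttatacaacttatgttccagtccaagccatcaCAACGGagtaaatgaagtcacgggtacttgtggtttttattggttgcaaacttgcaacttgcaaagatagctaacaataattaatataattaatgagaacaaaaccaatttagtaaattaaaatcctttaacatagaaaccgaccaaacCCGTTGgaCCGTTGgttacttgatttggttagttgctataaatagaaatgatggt
GH3.3, chr2:9866513-9866812, minus strand: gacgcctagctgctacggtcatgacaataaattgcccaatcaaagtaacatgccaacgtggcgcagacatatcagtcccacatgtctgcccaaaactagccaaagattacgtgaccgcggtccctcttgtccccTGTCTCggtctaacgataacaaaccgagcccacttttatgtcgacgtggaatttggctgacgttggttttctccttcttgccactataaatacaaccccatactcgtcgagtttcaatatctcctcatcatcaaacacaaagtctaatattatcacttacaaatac
PSBQ-2, chr4:2673194-2673493, minus strand: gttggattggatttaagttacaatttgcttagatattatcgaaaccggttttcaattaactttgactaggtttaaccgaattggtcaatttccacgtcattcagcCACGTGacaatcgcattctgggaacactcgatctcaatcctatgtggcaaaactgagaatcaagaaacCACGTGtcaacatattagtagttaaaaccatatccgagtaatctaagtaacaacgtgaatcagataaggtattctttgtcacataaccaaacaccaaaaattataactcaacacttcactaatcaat

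A match is a description of letters and not a site shown to act. The MSA core was found in 10.7% of member promoters against 6.56% of all promoters, and TGTCGG in 8.93% against 5.12%. The other auxin response element, TGTCTC, was found in 8.93% of member promoters against 14.2% of all promoters. The W-box of WRKY factors was near the background in both forms, TTGACC at 14.3% against 14.2% and TTGACT at 23.2% against 21.8%. The site II motif TGGGCC was found in 7.14% of member promoters against 15.5% of all promoters, and the telo box AAACCCTA in 1.79% against 6.22%. The rising loci had 3.49% and 1.16% for these 2 motifs. The RY repeat CATGCATG of seed maturation genes and the E2F site TTTCCCGC were in 0 member promoters. HSP90.1, LTP2 and 13 other members had none of the 16 motifs in the window. In HSP90.1 the annotated start appears to lie within the coding sequence, so most of its promoter may lie outside the window. Median GC content was 31.5% in the member promoters and 32.0% in all promoters.

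**Figure D1:**
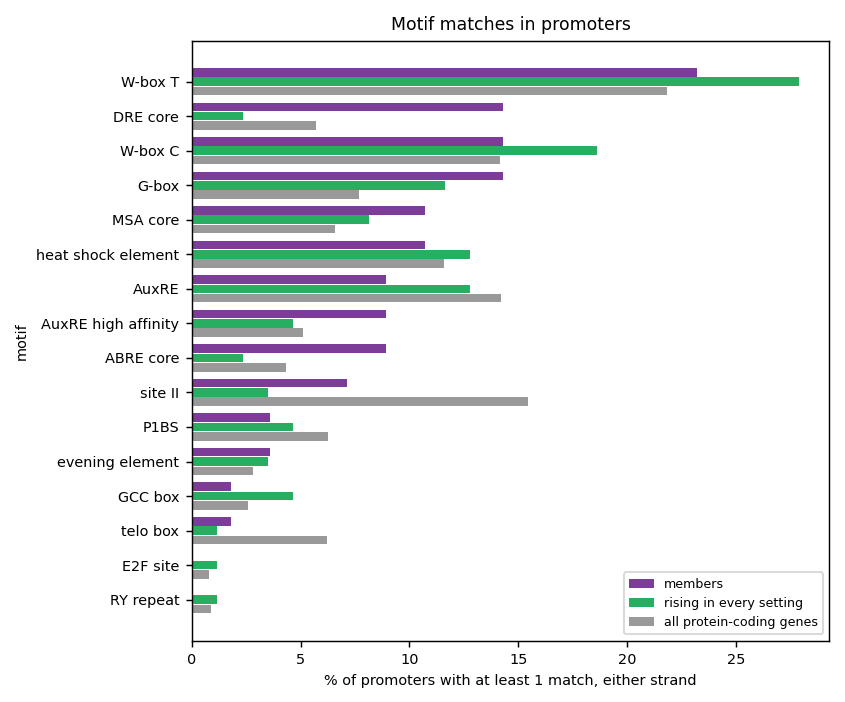
Share of promoters with at least 1 match to each of 16 motifs, in percent, for the 56 members with a single protein-coding gene, for 86 loci that rose in every setting and for 27443 protein-coding genes. The DRE core bar of the members, at 14.3%, is longer than that of all genes, at 5.70%, and the site II bar is shorter.

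Across the 63 loci, the median log2 fold change of 8 d over 4 d was -1.26 in WS spaceflight, -1.36 in WS ground, -1.51 in sku5 spaceflight and -1.47 in sku5 ground roots in the authors' deposited tables. Over all loci that fell in the same tables the medians were -0.81, -0.99, -1.09 and -0.93 in the same order. The authors called 12.4% of listed loci lower at 8 d in WS spaceflight, 12.1% in WS ground, 22.1% in sku5 spaceflight and 10.3% in sku5 ground roots, and the members are by their rule among them in each, so nothing is read from that count. At least 2-fold lower values in every setting were found for 31 members, and at least 4-fold lower values for 7. For 59 of the 63 members, all 4 values at 8 d lay below all 4 values at 4 d. In MLS, AT1G73120, AT2G37870 and AT5G01740 the settings differed so much that an 8 d value of a setting lay above a 4 d value of another. No member was listed at 0 in any group.

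**Figure D2:**
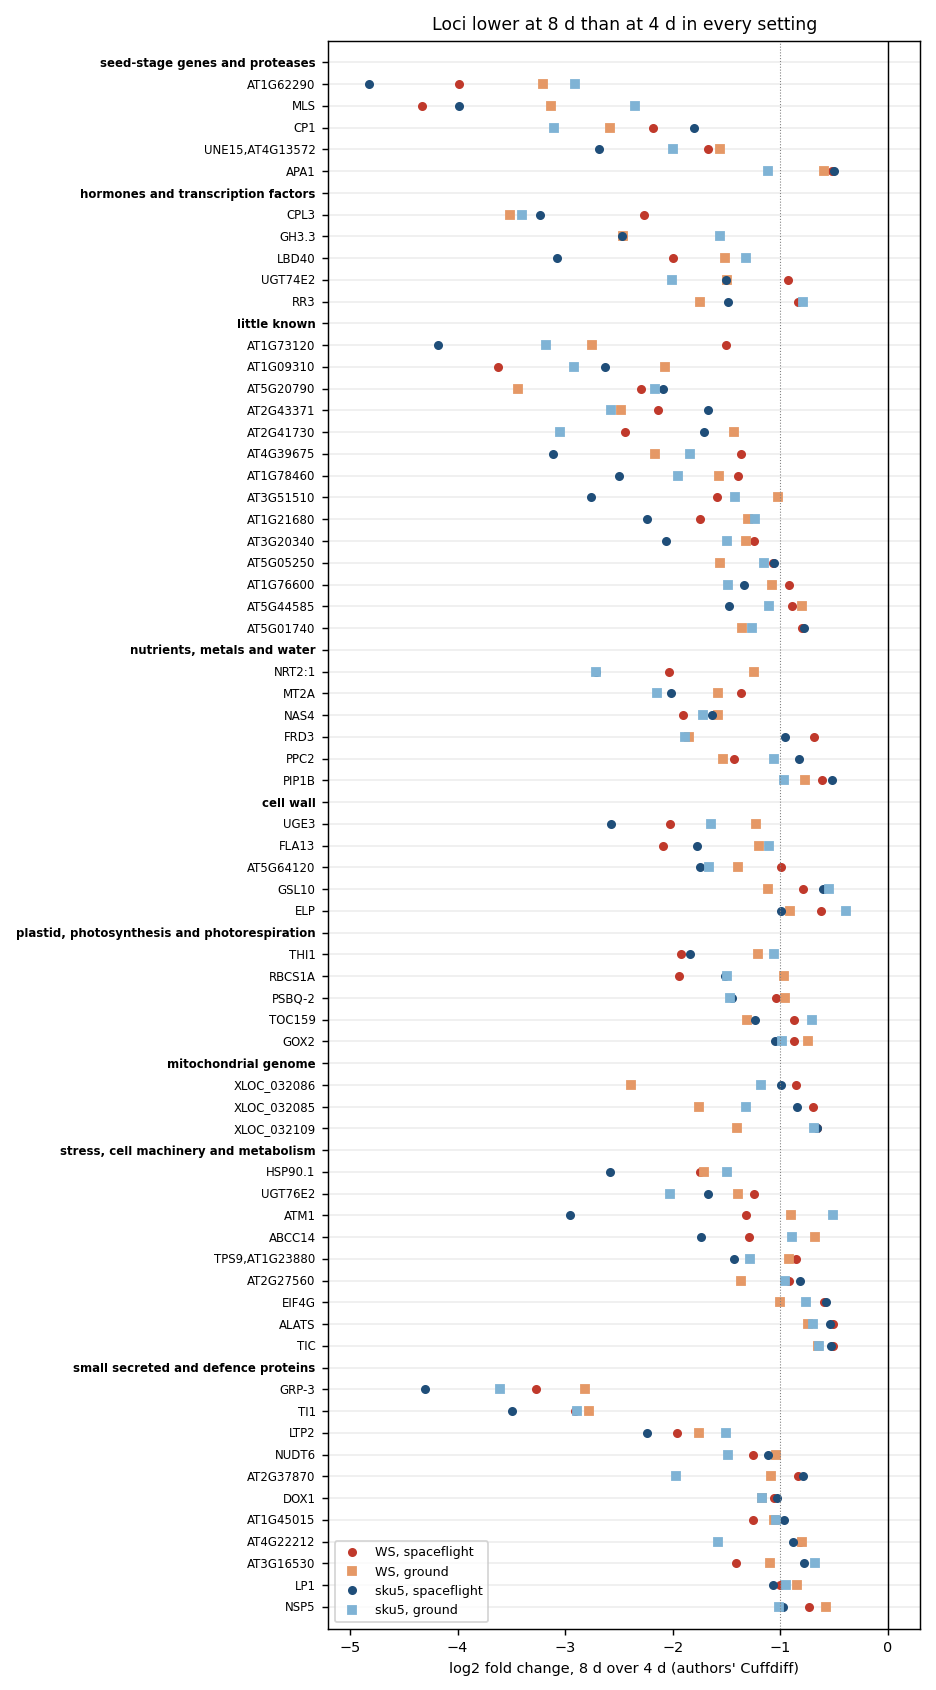
Log2 fold change of 8 d over 4 d from the authors' tables for each of the 63 loci (rows, sorted by role and by mean fall) in the 4 settings (coloured points, spaceflight as circles and ground as squares). All points lie left of 0; the dotted line marks a 2-fold fall, and 31 loci have all 4 points at or beyond it.

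By the mean of the 4 settings, the falls of AT1G62290 and MLS were the largest and the third largest, with GRP-3 between them. AT1G62290 and MLS belong to the seed-stage genes and proteases, whose other members had smaller mean falls. AT1G62290, annotated as a saposin-like aspartyl protease, had 0.792 FPKM at 8 d against 12.6 FPKM at 4 d in WS spaceflight roots, 0.676 against 6.25 in WS ground roots, 0.946 against 26.7 in sku5 spaceflight roots and 0.333 against 2.49 in sku5 ground roots. Its log2 fold changes in the authors' deposited tables were -3.99, -3.21, -4.82 and -2.91 in that order, with standard errors between 0.99 and 2.07. MLS (AT5G03860) encodes malate synthase, an enzyme of the glyoxylate cycle, and had 1.29 FPKM at 8 d against 26.0 FPKM at 4 d in WS spaceflight roots, 1.63 against 14.3 in WS ground roots, 5.38 against 85.3 in sku5 spaceflight roots and 0.705 against 3.60 in sku5 ground roots. The log2 fold changes of MLS were -4.33, -3.13, -3.99 and -2.35 in the authors' deposited tables, with standard errors between 0.45 and 0.99. The sku5 spaceflight roots were highest at both ages and the sku5 ground roots lowest, so that MLS at 8 d in spaceflight lay above its 4 d level in the sku5 ground roots. CP1, a cysteine proteinase, fell by log2 fold changes of -1.81 to -3.11 in the authors' deposited tables. The merged locus of UNE15, of the late embryogenesis abundant family, and AT4G13572 had log2 fold changes of -1.56 to -2.69, which cannot be split between its genes. APA1, a vacuolar aspartic proteinase, was among the 3 members with the smallest mean falls, with log2 fold changes of -0.50 to -1.12 in the authors' deposited tables.

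None of the 10 listed seed reserve loci is a member, but they moved beside this group. In the authors' deposited tables, of these loci 4 were called lower at 8 d in WS spaceflight roots, 5 in WS ground, 9 in sku5 spaceflight and 0 in sku5 ground roots, and 0 higher. Their summed values in sku5 spaceflight roots were 290.4 FPKM at 8 d against 7481 FPKM at 4 d. In WS roots the called ones were all listed at 0 at 8 d, against sums of 165 FPKM at 4 d in spaceflight and 134 FPKM on the ground. The part of seed remains in the falls of MLS and AT1G62290 was not tested.

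Small secreted and defence-related proteins form the largest annotated set, with 11 members. GRP-3 (AT2G05520), a glycine-rich cell wall protein that binds a wall-associated kinase, had 8.12 FPKM at 8 d against 78.4 FPKM at 4 d in WS spaceflight roots, 7.42 against 52.1 in WS ground roots, 1.92 against 37.8 in sku5 spaceflight roots and 11.5 against 141 in sku5 ground roots. The log2 fold changes of GRP-3 were -3.27, -2.81, -4.30 and -3.61 in the authors' deposited tables, with standard errors between 0.58 and 1.48. TI1 (AT2G43510), a defensin-like trypsin inhibitor, had 13.9 FPKM at 8 d against 104 FPKM at 4 d in WS spaceflight roots, 8.03 against 55.1 in WS ground roots, 8.12 against 91.4 in sku5 spaceflight roots and 8.13 against 60.3 in sku5 ground roots. The 8 d levels of TI1 were close to each other in 3 settings and the WS spaceflight roots were higher at that age. LTP2 (AT2G38530) and its neighbour LTP1 (AT2G38540, named LP1 in the reference) are lipid transfer proteins of the epidermal cell wall, 890 bases apart on chromosome 2 of the reference. LTP2 had 57.9 FPKM at 8 d against 225 FPKM at 4 d in WS spaceflight roots, 74.4 against 252 in WS ground roots, 45.7 against 215 in sku5 spaceflight roots and 69.4 against 198 in sku5 ground roots, and the values of LTP1 were lower, at 27.7 FPKM at 8 d against 55.5 FPKM at 4 d in WS spaceflight roots, 31.1 against 55.7 in WS ground roots, 22.7 against 47.7 in sku5 spaceflight roots and 32.1 against 62.1 in sku5 ground roots. The log2 fold changes of the neighbours were -1.96, -1.76, -2.24 and -1.51 for LTP2 and -1.0, -0.84, -1.07 and -0.95 for LTP1 in the authors' deposited tables, so LTP2 fell more than LTP1 in each setting. Their reads may in part be shared, as the genes are alike in sequence.

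The most abundant member was AT4G22212, annotated as a defensin-like protein, with 774 FPKM at 8 d against 1361 FPKM at 4 d in WS spaceflight roots, 952 against 1660.1 in WS ground roots, 616 against 1138 in sku5 spaceflight roots and 589.9 against 1766 in sku5 ground roots. Its authors' locus spans 16322 bases, far more than the 790-nt transcript of the reference, so other transcripts may be counted in it. DOX1, an alpha-dioxygenase that oxidises fatty acids, and NSP5, a nitrile specifier protein of glucosinolate breakdown, had even falls, with log2 fold changes of -1.03 to -1.17 and -0.58 to -1.01 in the authors' deposited tables. NUDT6, a Nudix hydrolase of NADH, had log2 fold changes of -1.05 to -1.49. The other members of this set were AT2G37870 of the lipid transfer family, at -0.79 to -1.97, AT1G45015 with a lipid recognition domain, at -0.96 to -1.25, and the chitin-induced lectin AT3G16530, at -0.68 to -1.41.

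Another 5 members act in hormone responses or transcription. CPL3 (AT4G01060), a CAPRICE-like MYB protein that promotes root hair formation, had 12.1 FPKM at 8 d against 58.1 FPKM at 4 d in WS spaceflight roots, 7.77 against 88.7 in WS ground roots, 6.44 against 60.5 in sku5 spaceflight roots and 7.45 against 78.5 in sku5 ground roots. Its log2 fold changes were -2.27, -3.51, -3.23 and -3.40 in the authors' deposited tables, with standard errors between 0.70 and 0.91. GH3.3 (AT2G23170), which joins auxin to amino acids and is itself induced by auxin, was low throughout, with 0.742 FPKM at 8 d against 4.08 FPKM at 4 d in WS spaceflight roots, 0.915 against 5.05 in WS ground roots, 0.882 against 4.88 in sku5 spaceflight roots and 1.31 against 3.84 in sku5 ground roots. Its log2 fold changes were -2.46, -2.47, -2.47 and -1.56 in the authors' deposited tables, nearly the same in 3 of the settings. LBD40, a LOB domain transcription factor, had log2 fold changes of -1.32 to -3.08 in the authors' deposited tables. UGT74E2, which glucosylates the auxin precursor indole-3-butyric acid, had -0.93 to -2.01. RR3 (AT2G41310), a type-A response regulator that damps cytokinin signalling, had 25.6 FPKM at 8 d against 45.7 FPKM at 4 d in WS spaceflight roots, 10.8 against 36.1 in WS ground roots, 15.7 against 44.2 in sku5 spaceflight roots and 23.2 against 40.1 in sku5 ground roots. The fall of RR3 was larger in the WS ground and sku5 spaceflight roots than in the others.

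The 6 members listed next handle nutrients, metals or water. NRT2:1 (AT1G08090), the main high-affinity nitrate transporter of roots, had 1.35 FPKM at 8 d against 5.54 FPKM at 4 d in WS spaceflight roots, 1.86 against 4.41 in WS ground roots, 0.916 against 6.02 in sku5 spaceflight roots and 1.38 against 9.03 in sku5 ground roots. The log2 fold changes of NRT2:1 in the authors' deposited tables were -2.04, -1.25, -2.72 and -2.71, with standard errors between 0.72 and 0.86. NAS4, which makes the metal chelator nicotianamine, had 10.9 FPKM at 8 d against 40.9 FPKM at 4 d in WS spaceflight roots, 13.9 against 41.5 in WS ground roots, 9.68 against 30.0 in sku5 spaceflight roots and 10.5 against 34.6 in sku5 ground roots, an even fall with log2 fold changes of -1.58 to -1.90. FRD3 (AT3G08040), which loads citrate into the xylem for iron transport, had 12 FPKM at 8 d against 19.4 FPKM at 4 d in WS spaceflight roots, 10.6 against 38.3 in WS ground roots, 15 against 29.1 in sku5 spaceflight roots and 10.3 against 37.9 in sku5 ground roots. The fall of FRD3 was smaller in both spaceflight settings than in both ground settings. MT2A, a metallothionein that binds copper and other metals, had 173 FPKM at 8 d against 446 FPKM at 4 d in WS spaceflight roots, 123 against 367 in WS ground roots, 122 against 494 in sku5 spaceflight roots and 131 against 579 in sku5 ground roots. PIP1B, a water channel of the plasma membrane, was abundant and fell little, with log2 fold changes of -0.52 to -0.97 in the authors' deposited tables. PPC2, a phosphoenolpyruvate carboxylase, had -0.82 to -1.53.

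Another 5 members belong to plastids, photosynthesis or photorespiration, although the samples are roots. RBCS1A (AT1G67090), a Rubisco small subunit, had 88.9 FPKM at 8 d against 342 FPKM at 4 d in WS spaceflight roots, 94.3 against 184 in WS ground roots, 60.7 against 173 in sku5 spaceflight roots and 65.1 against 184 in sku5 ground roots. Its paralogs RBCS1B, RBCS2B and RBCS3B are near-identical in part, so the split of reads between them is uncertain. PSBQ-2, a subunit of photosystem II, had log2 fold changes of -0.96 to -1.47 in the authors' deposited tables. Of 23 listed loci of the photosynthesis list, which marks green shoot tissue, 12 were called lower at 8 d in WS spaceflight, 6 in WS ground, 11 in sku5 spaceflight and 9 in sku5 ground roots, and 0 higher. The part of carried-over shoot tissue in the falls of RBCS1A and PSBQ-2 was not tested. THI1, an enzyme of thiamine synthesis, had log2 fold changes of -1.06 to -1.92, TOC159, a receptor of plastid protein import, -0.70 to -1.31, and GOX2, the glycolate oxidase of photorespiration, -0.74 to -1.05 in the authors' deposited tables.

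Of 5 cell wall members, UGE3, which makes UDP-galactose for wall polymers, had the largest mean fall, with log2 fold changes of -1.22 to -2.58 in the authors' deposited tables. FLA13, a fasciclin-like arabinogalactan protein, had 18.1 FPKM at 8 d against 77.2 FPKM at 4 d in WS spaceflight roots, 28.0 against 64.3 in WS ground roots, 24.5 against 83.6 in sku5 spaceflight roots and 27.1 against 58.6 in sku5 ground roots, and both spaceflight falls exceeded both ground falls. AT5G64120, a wall-bound peroxidase, had -1.0 to -1.75, and GSL10, a callose synthase, -0.55 to -1.12. ELP (AT1G12090), an extensin-like protein, was the second most abundant member, with 715 FPKM at 8 d against 1102 FPKM at 4 d in WS spaceflight roots, 681 against 1282 in WS ground roots, 509 against 1011 in sku5 spaceflight roots and 603 against 789 in sku5 ground roots.

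Another 9 members serve stress, transport, the clock or general cell machinery. HSP90.1 (AT5G52640), the heat-inducible cytosolic HSP90 chaperone, had 8.63 FPKM at 8 d against 29.0 FPKM at 4 d in WS spaceflight roots, 5.05 against 16.5 in WS ground roots, 11.3 against 67.6 in sku5 spaceflight roots and 5.83 against 16.5 in sku5 ground roots. Both spaceflight values of HSP90.1 were above both ground values at each age. ATM1 (AT3G19960), a myosin of the plasma membrane and plasmodesmata, had 30.6 FPKM at 8 d against 76.6 FPKM at 4 d in WS spaceflight roots, 31.2 against 58.2 in WS ground roots, 25.7 against 199.5 in sku5 spaceflight roots and 25.5 against 36.4 in sku5 ground roots. The 8 d values of ATM1 were close to each other, and the 4 d value of the sku5 spaceflight roots stood far above the others. UGT76E2, a glucosyltransferase of small molecules, had log2 fold changes of -1.25 to -2.03, and ABCC14, an ABC transporter, -0.68 to -1.74 in the authors' deposited tables. The merged locus of TPS9, of the trehalose phosphate synthase family, and AT1G23880 had -0.86 to -1.43. EIF4G, a translation initiation factor, had -0.58 to -1.0. ALATS, the alanyl-tRNA synthetase, and TIC, a regulator of the clock, were with APA1 the members of smallest mean fall, with log2 fold changes of -0.51 to -0.74 and -0.51 to -0.65 in the authors' deposited tables. AT2G27560, annotated as a tRNA of 72 nt in the reference, is a locus of 1699 bases in the authors' coordinates, and its values of -0.82 to -1.36 may not be those of the tRNA.

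The 3 unnamed loci lie in the mitochondrial genome in the authors' coordinates, for which no build is given in the sources used here. XLOC_032085 spans bases 107034 to 144751, XLOC_032086 bases 285901 to 323206 and XLOC_032109 bases 187824 to 192503. XLOC_032086 had 11.6 FPKM at 8 d against 21.0 FPKM at 4 d in WS spaceflight roots, 3.99 against 21.0 in WS ground roots, 8.21 against 16.4 in sku5 spaceflight roots and 10.3 against 23.2 in sku5 ground roots, and its WS ground value at 8 d was the lowest. In the other 2 the WS ground roots fell most as well, with log2 fold changes of -0.70, -1.76, -0.85 and -1.32 and of -0.66, -1.40, -0.66 and -0.69 in the authors' deposited tables. Of 13 listed mitochondrial loci, 11 were called lower at 8 d in WS ground roots, 5 in WS spaceflight, 4 in sku5 spaceflight and 4 in sku5 ground roots, and 0 were called higher.

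The remaining 14 members were labelled little known, a label that may miss work on single genes. Of them, 7 are among the 20 with the largest mean falls. AT1G73120, annotated as an F-box protein, had 10.2 FPKM at 8 d against 29.0 FPKM at 4 d in WS spaceflight roots, 11.6 against 77.9 in WS ground roots, 8.88 against 162 in sku5 spaceflight roots and 29.3 against 266 in sku5 ground roots. AT1G09310, with a DUF538 domain, had 6.51 FPKM at 8 d against 80.1 FPKM at 4 d in WS spaceflight roots, 9.61 against 40.5 in WS ground roots, 4.48 against 27.7 in sku5 spaceflight roots and 14.5 against 109 in sku5 ground roots. AT4G39675, annotated as uncharacterised, had 63.2 FPKM at 8 d against 163 FPKM at 4 d in WS spaceflight roots, 55 against 246 in WS ground roots, 45.4 against 394 in sku5 spaceflight roots and 96.0 against 344 in sku5 ground roots. AT5G20790 had log2 fold changes of -2.09 to -3.44, AT2G41730 of -1.43 to -3.05 and AT1G78460, of the SOUL heme-binding family, of -1.40 to -2.50 in the authors' deposited tables. AT2G43371, which the reference does not list, had -1.68 to -2.58. AT5G44585 was the abundant one among them, with 183 FPKM at 8 d against 341 FPKM at 4 d in WS spaceflight roots, 266 against 463 in WS ground roots, 135 against 377 in sku5 spaceflight roots and 241 against 521 in sku5 ground roots.

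**Figure D3:**
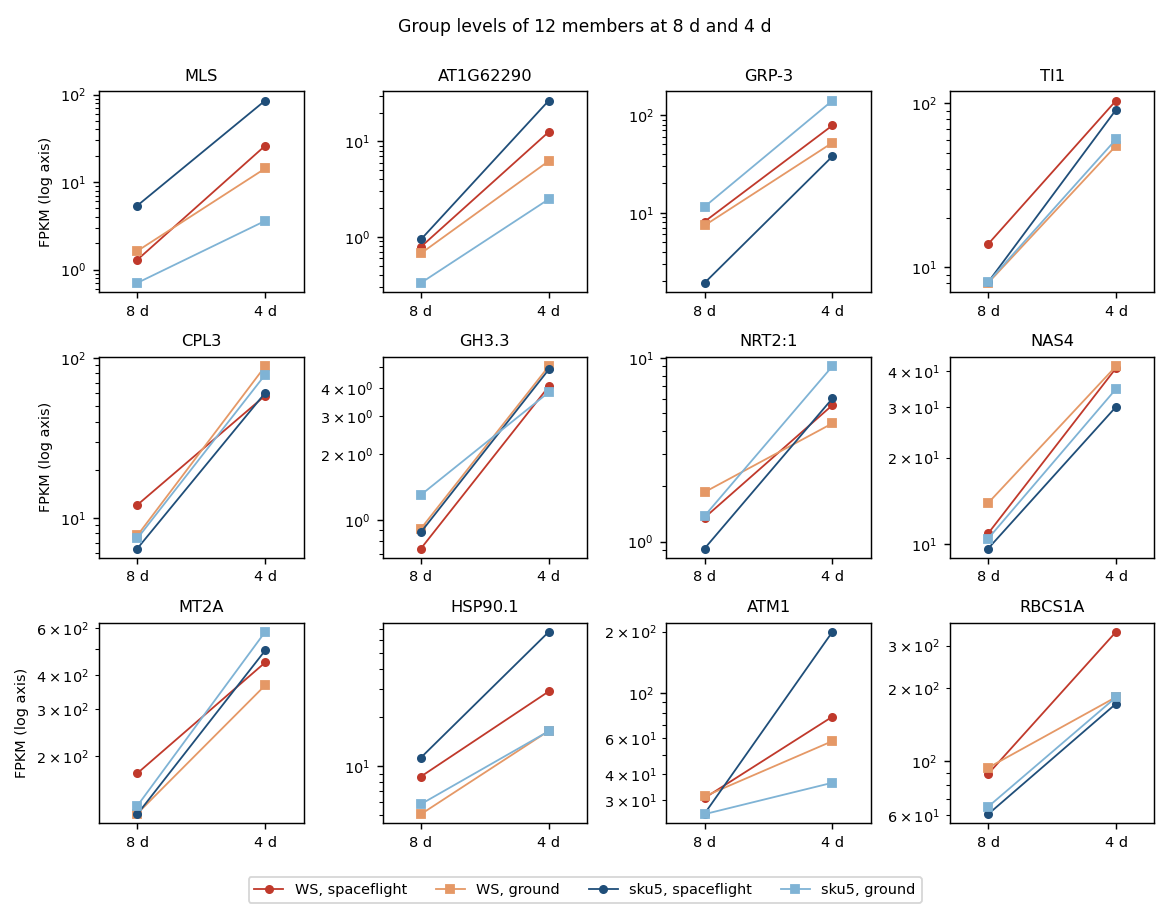
FPKM on a log axis at 8 d (left) and 4 d (right) for 12 members, with a line for each setting. All lines rise to the right, and MLS shows the widest spread between settings at 4 d, with 85.3 FPKM in sku5 spaceflight against 3.60 FPKM in sku5 ground roots.

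The size of the fall varied between settings within the errors for most members. The 4 log2 fold changes of a member spanned less than 1 in 38 of 63 members and less than 0.5 in 11. The largest of the 4 falls was in sku5 spaceflight roots for 24 members, in sku5 ground for 16, in WS ground for 15 and in WS spaceflight for 8. In WS, 34 members fell less in spaceflight than on the ground and 29 fell more, with a median difference of 0.07 on the log2 scale. In sku5, 31 fell less in spaceflight and 32 more, with a median difference of -0.01. The median combined standard error of these differences was 0.67 in WS and 0.68 in sku5, and 3 and 1 members lay beyond 2 of them.

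ATM1 was the member in sku5 beyond that limit, with log2 fold changes of -2.96 in spaceflight and -0.51 on the ground, a difference of -2.45 with a combined standard error of 0.46. In WS the 3 were RBCS1A, which fell more in spaceflight by a difference of -0.98 (combined standard error 0.42), and FRD3 and XLOC_032086, which fell less in spaceflight by 1.16 (0.54) and 1.54 (0.74). Between genotypes in spaceflight, AT1G73120, ATM1 and AT4G39675 fell more in sku5 than in WS, by differences of -2.68, -1.63 and -1.75. On the ground no member differed between sku5 and WS beyond 2 combined standard errors. No p can be given for these differences from values per group.

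Whether these age-responsive loci also differed between spaceflight and ground was asked with the authors' 4 spaceflight tables, which the rule did not use. They rest on the same libraries as the age tables, so the values that chose the members also enter these comparisons. The rule favours low 8 d and high 4 d values in spaceflight and in ground roots alike, and each can move a spaceflight difference in its own direction. The number of loci that the authors tested is unknown, and the background here is the share called among the 4882 loci listed in any table. Of the 63 members, 41 were called in at least 1 spaceflight table, 24 of them always higher, 15 always lower and 2 both ways, and 22 in none. The 41 are 65.1% of the members, near the 60.2% of all listed loci and the 55.5% of the 1760 other loci that fell in at least 1 age table. The always higher ones are 38.1% of the members, against 32.6% of those other falling loci and 27.7% of all listed loci, and the always lower ones 23.8%, against 21.1% and 30.8%. Those called both ways are 3.17%, against 1.82% and 1.64%. In WS at 4 d, 6 were higher in spaceflight and 2 lower, against 1.29% and 1.33% of listed loci. In sku5 at 4 d, 10 were higher and 8 lower, against 12.3% and 8.34%. In WS at 8 d, 15 were higher and 3 lower, against 8.4% and 9.79%. In sku5 at 8 d, 6 were higher and 10 lower, against 11.1% and 22.7%. As shares of the members, the 15 higher in WS at 8 d are 23.8%, the 6 higher in WS at 4 d are 9.52%, and both counts in sku5 at 8 d, 9.52% and 15.9%, lie below the shares of all listed loci.

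**Figure D4:**
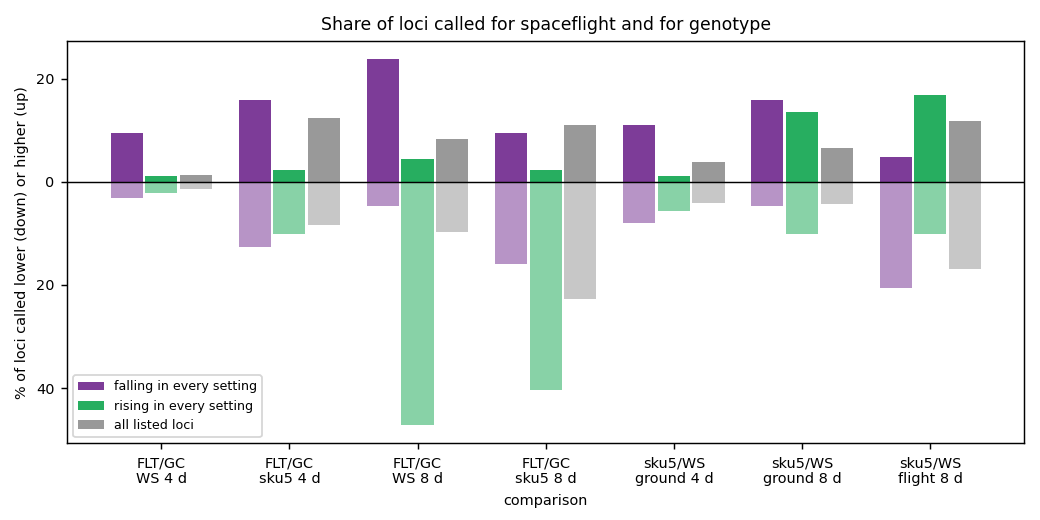
Share of loci called higher (upward bars) or lower (downward, paler bars), in percent, in each spaceflight and genotype table of the authors, for the 63 members, the 89 loci that rose with age in every setting and all 4882 listed loci. In WS at 8 d, 23.8% of the members were higher in spaceflight, while 47.2% of the rising loci were lower.

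HSP90.1 was the member called higher in spaceflight in all 4 tables. It had 28.2 FPKM in spaceflight roots against 15.2 FPKM in ground roots in WS at 4 d, 63.1 FPKM in spaceflight roots against 15.8 FPKM in ground roots in sku5 at 4 d, 9.46 FPKM in spaceflight roots against 5.17 FPKM in ground roots in WS at 8 d and 11.8 FPKM in spaceflight roots against 6.28 FPKM in ground roots in sku5 at 8 d. Its log2 fold changes in the authors' deposited tables were 0.89 (standard error 0.42), 1.99 (standard error 0.42), 0.87 (standard error 0.38) and 0.91 (standard error 0.37) in that order. NUDT6 was higher in 3, with 106 FPKM in spaceflight roots against 46.9 FPKM in ground roots in WS at 4 d, 50.1 FPKM in spaceflight roots against 25.3 FPKM in ground roots in WS at 8 d and 36.8 FPKM in spaceflight roots against 22.0 FPKM in ground roots in sku5 at 8 d. AT1G73120 was lower in 3, with 28.2 FPKM in spaceflight roots against 71.6 FPKM in ground roots in WS at 4 d, 150.1 FPKM in spaceflight roots against 256 FPKM in ground roots in sku5 at 4 d and 9.28 FPKM in spaceflight roots against 31.7 FPKM in ground roots in sku5 at 8 d.

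The widest spaceflight differences were in sku5 at 4 d. MLS had 79.6 FPKM in spaceflight roots against 3.47 FPKM in ground roots there, a log2 fold change of 4.52 (standard error 0.55) in the authors' deposited table, and the protease AT1G62290 had 24.9 FPKM in spaceflight roots against 2.4 FPKM in ground roots, 3.38 (standard error 0.69). MLS was also higher in spaceflight in WS at 4 d, at 25.3 FPKM in spaceflight roots against 13.2 FPKM in ground roots, and in sku5 at 8 d, at 5.60 FPKM in spaceflight roots against 0.760 FPKM in ground roots. ATM1 had 186 FPKM in spaceflight roots against 35.0 FPKM in ground roots in sku5 at 4 d, UGE3 20.8 FPKM in spaceflight roots against 5.11 FPKM in ground roots and AT1G21680 22.5 FPKM in spaceflight roots against 6.13 FPKM in ground roots. AT3G51510, THI1, ABCC14 and TOC159 were higher there as well, with log2 fold changes of 1.73, 0.97, 0.97 and 0.84 in the authors' deposited table. Seed reserve loci moved beside them. There, 5 of the 10 listed seed reserve loci were higher in spaceflight and 0 lower, with summed values of 2207 FPKM in spaceflight against 4.42 FPKM in ground roots. In WS at 4 d 2 were higher, at sums of 513.6 against 215 FPKM, and in sku5 at 8 d 6 were higher, at 264 against 4.64 FPKM. In WS at 8 d none was called. The part of seed remains in the spaceflight differences was not tested.

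In the other direction in sku5 at 4 d, GRP-3 had 35.1 FPKM in spaceflight roots against 135 FPKM in ground roots, AT1G09310 25.8 FPKM in spaceflight roots against 105 FPKM in ground roots and AT2G41730 17.64 FPKM in spaceflight roots against 68.3 FPKM in ground roots. GRP-3 and AT1G09310 were also lower in spaceflight in sku5 at 8 d, with log2 fold changes of -2.64 (standard error 1.41) and -1.74 (standard error 0.76) in the authors' deposited table. LBD40 and AT5G44585 were lower in spaceflight at 8 d in both genotypes. LBD40 had 13.7 FPKM in spaceflight roots against 23.2 FPKM in ground roots in WS and 9.72 FPKM in spaceflight roots against 23.0 FPKM in ground roots in sku5. ELP, LTP2, AT3G16530 and AT4G39675 were lower in spaceflight in sku5 at 8 d, with log2 fold changes of -0.29, -0.65, -0.64 and -1.12 in the authors' deposited table.

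The 15 members that were higher in spaceflight in WS at 8 d included the 3 mitochondrial loci, RR3, NUDT6, HSP90.1, MT2A and several genes of long transcripts. XLOC_032086 had 12.7 FPKM in spaceflight roots against 4.09 FPKM in ground roots, RR3 28.0 FPKM in spaceflight roots against 11 FPKM in ground roots and MT2A 189.7 FPKM in spaceflight roots against 126 FPKM in ground roots. TOC159 had 9.08 FPKM in spaceflight roots against 4.51 FPKM in ground roots, EIF4G 9.84 FPKM in spaceflight roots against 6.06 FPKM in ground roots, GSL10 6.26 FPKM in spaceflight roots against 3.89 FPKM in ground roots, ALATS 15.4 FPKM in spaceflight roots against 10.3 FPKM in ground roots and TIC 13.1 FPKM in spaceflight roots against 9.26 FPKM in ground roots. These are 5 of the 8 members with transcripts of at least 3000 nt, of which 0 were lower. Transcript length moved with the calls of that table at large. Of 470 listed loci with transcripts of at least 3000 nt, 27.9% were higher in spaceflight and 0.213% lower, against 6.11% and 10.9% of the 3976 shorter ones. Of 13 mitochondrial loci 11 were higher and 0 lower. The part of transcript length and of mitochondrial RNA in these calls was not tested.

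Where called for spaceflight at 8 d, the loci that rose with age in every setting were mostly lower in both genotypes. The called members were mostly higher in WS and more often lower in sku5. Of the 89 rising loci, 4 were higher and 42 lower in spaceflight in WS at 8 d, and 2 were higher and 36 lower in sku5 at 8 d. Among the members the counts were 15 higher and 3 lower in WS, and 6 higher and 10 lower in sku5. Of all listed loci, 8.4% were higher and 9.79% lower in WS, and 11.1% were higher and 22.7% lower in sku5. The lower ones were 47.2% of the rising loci in WS and 40.4% in sku5. Of the members, 23.8% were higher and 4.76% lower in WS, and 9.52% were higher and 15.9% lower in sku5. The median transcript length was 1443 nt in the members and 1443 nt in the rising loci. The longest was 6349 nt in the members and 2869 nt in the rising loci, so the sets were not matched for long transcripts. The 8 d ground libraries set both the age and the spaceflight values, so the directions at 8 d are not independent of how the loci were chosen.

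Genotype was compared by the authors on the ground at both ages and in spaceflight at 8 d. The same genotypes in orbit at 4 d were not analysed here. Of the 63 members, 29 were called in at least 1 of the 3 genotype tables, and 21 were called for neither genotype nor spaceflight. The 29 are 46.0% of the members, against 36.9% of the 1760 other falling loci and 41.3% of all listed loci. The 21 are 33.3% of the members, near the 34.9% of the other falling loci, and all listed loci gave 25.1%. On the ground at 8 d, 10 were higher in sku5 and 3 lower, against 6.51% and 4.24% of listed loci. On the ground at 4 d, 7 were higher and 5 lower, against 3.75% and 4.06%. In spaceflight at 8 d, 3 were higher and 13 lower, against 11.9% and 17.0%. The 13 lower in spaceflight are 20.6% of the members, near the share of all listed loci.

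On the ground at 4 d, sku5 roots had more AT1G73120, at 259 FPKM in sku5 roots against 73.4 FPKM in WS roots, more GRP-3, at 137 FPKM in sku5 roots against 49.1 FPKM in WS roots, and more AT1G09310, at 107 FPKM in sku5 roots against 38.1 FPKM in WS roots. NRT2:1 was called for genotype in that table alone, with 8.81 FPKM in sku5 roots against 4.14 FPKM in WS roots and a log2 fold change of 1.09 (standard error 0.58) in the authors' deposited table. MT2A had 565 FPKM in sku5 roots against 346 FPKM in WS roots. MLS was lower in sku5, at 3.51 FPKM in sku5 roots against 13.5 FPKM in WS roots, as were AT1G62290, at 2.43 FPKM in sku5 roots against 5.89 FPKM in WS roots, and ELP, at 769 FPKM in sku5 roots against 1206 FPKM in WS roots. In that comparison 5 of 10 seed reserve loci were lower in sku5 and 0 higher, with sums of 4.47 FPKM in sku5 against 346 FPKM in WS roots.

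On the ground at 8 d, AT1G73120 was again higher in sku5, at 31.4 FPKM in sku5 roots against 11.9 FPKM in WS roots. RR3 had 24.8 FPKM in sku5 roots against 11 FPKM in WS roots, and all 3 mitochondrial loci were higher in sku5, XLOC_032086 with 10.9 FPKM in sku5 roots against 4.09 FPKM in WS roots. TOC159, EIF4G, GSL10 and TIC were higher with log2 fold changes of 0.75, 0.60, 0.59 and 0.54 in the authors' deposited table. In this table, too, length moved with the calls, with 18.1% of the 470 long listed loci higher in sku5 and 0.638% lower, against 5.13% and 4.60% of the shorter ones, and 9 of 13 mitochondrial loci were higher and 0 lower. It shares the WS ground libraries of 8 d with the spaceflight table of WS at 8 d. Their part in the result was not tested. Length also moved with the calls in comparisons without these libraries. In sku5 over WS in spaceflight at 8 d, 21.3% of long loci were higher and 2.34% lower, against 11.2% and 18.8% of shorter ones. In spaceflight over ground in sku5 at 8 d, 4.26% of long loci were lower, against 24.3% of shorter ones. The share higher there was larger among the long loci. In the spaceflight and genotype comparisons of 4 d, the share higher was smaller among the long loci. AT5G01740, an NTF2 family protein, was lower in sku5 in all 3 genotype tables. It had 13.2 FPKM in sku5 roots against 32.5 FPKM in WS roots in spaceflight at 8 d, 18.4 FPKM in sku5 roots against 29.6 FPKM in WS roots on the ground at 8 d and 40.4 FPKM in sku5 roots against 69.4 FPKM in WS roots on the ground at 4 d.

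In spaceflight at 8 d, sku5 roots had less GRP-3, at 2.00 FPKM in sku5 roots against 8.97 FPKM in WS roots, less UGT74E2, at 1.88 FPKM in sku5 roots against 5.20 FPKM in WS roots, and less AT2G37870, at 21.8 FPKM in sku5 roots against 44.6 FPKM in WS roots. RBCS1A was lower in sku5 at 8 d in spaceflight, at 63.3 FPKM in sku5 roots against 98.5 FPKM in WS roots, and on the ground, at 69.4 FPKM in sku5 roots against 96.5 FPKM in WS roots. AT4G22212 and ELP were lower in sku5 in spaceflight as well, with log2 fold changes of -0.42 and -0.58 in the authors' deposited table. The 3 members that were higher in sku5 were MLS, at 5.60 FPKM in sku5 roots against 1.44 FPKM in WS roots, UGE3, at 3.90 FPKM in sku5 roots against 1.85 FPKM in WS roots, and AT1G21680, at 5.31 FPKM in sku5 roots against 3.24 FPKM in WS roots.

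**Figure D5:**
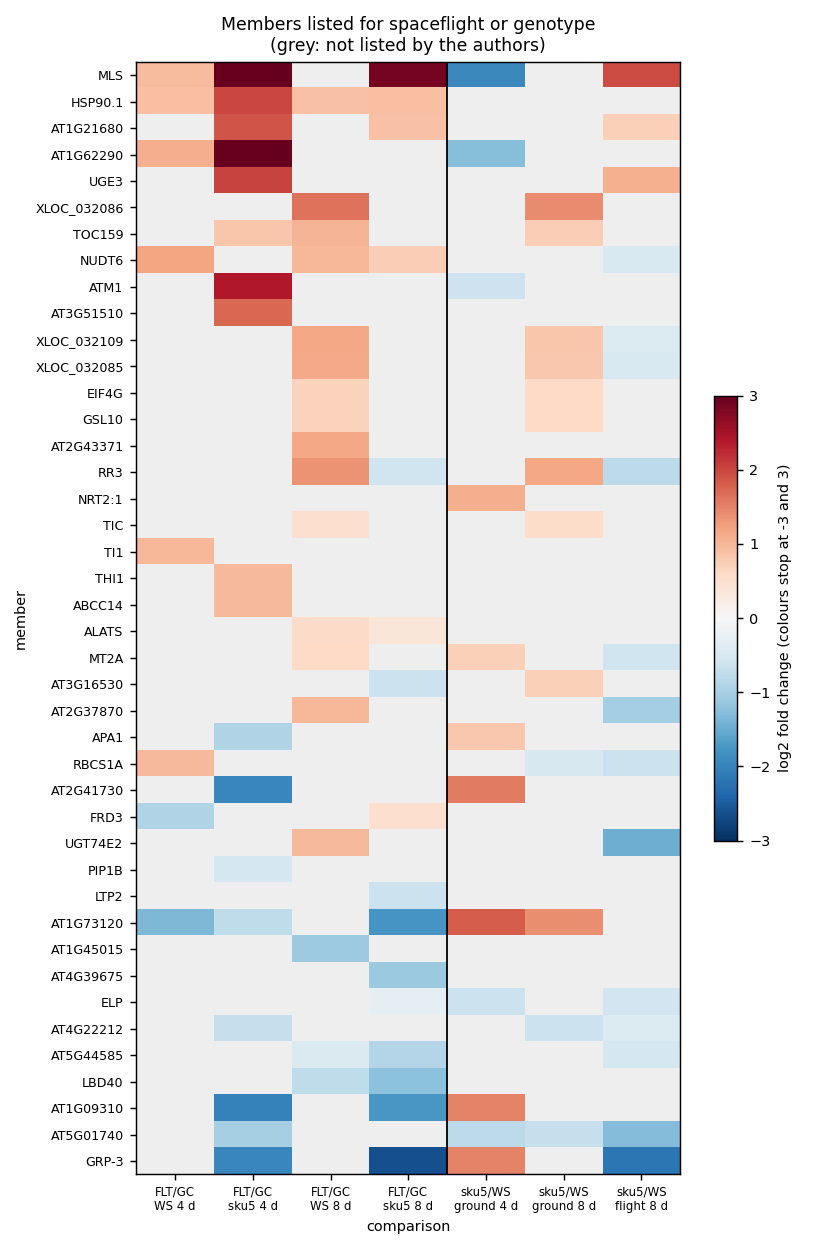
Log2 fold changes from the authors' tables for the 42 members listed for spaceflight over ground (left 4 columns) or sku5 over WS (right 3 columns), red for higher and blue for lower, with grey where a locus was not listed. MLS and HSP90.1 stand at the top with red in the spaceflight columns, GRP-3 at the bottom; RR3, MT2A, GRP-3, MLS and 2 mitochondrial loci show both colours across the genotype columns.

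The members were spread over the genome, with 17, 13, 12, 7 and 11 on chromosomes 1 to 5 in the authors' coordinates. Besides LTP2 and LTP1, a neighbouring pair was RBCS1A and LBD40, 4005 bases apart on chromosome 1 of the reference. Genes with 1 exon made up 24.6% of the 57 members found in the reference. They were 19.4% of single genes that fell in at least 1 age table and 15.7% of the 4446 listed single genes. The median transcript was 1443 nt in the members, 1503.5 nt in those falling genes and 1588.5 nt in the listed ones. With age in WS ground roots, 25.1% of the 470 listed loci of at least 3000 nt fell and 2.13% rose, against 10.5% and 11.7% of shorter ones. In sku5 ground roots the shares were 17.9% and 1.70%, against 9.58% and 11.6%. In spaceflight the falling shares were closer, at 12.8% against 12.4% in WS and 20.6% against 22.0% in sku5. The part of transcript length in the falls was not tested. Of 40 gene lists drawn up by identifier or annotated product, 15 held a member, and 20 members were in at least 1 list. Lipid transfer proteins gave 3 members of 34 listed loci, class III peroxidases 2 of 33 (DOX1 among them by its annotated product only), and extensins, proline-rich and arabinogalactan proteins 2 of 85. Heat shock gave 1 of 3, the glyoxylate cycle and fat breakdown 1 of 3, and iron 1 of 10 (NAS4, in a list that misses FRD3). Nitrate and ammonium gave 1 of 13, auxin 1 of 12 and water channels 1 of 11. Ribosomal proteins gave 0 of 182 listed loci, loci matched to transcription factors by words of their product 0 of 256 (a match that misses LBD40 and CPL3), receptor-like kinases 0 of 114, cytochrome P450s 0 of 42, histones 0 of 34 and seed reserves 0 of 10. Cold and dehydration genes gave 0 of 9 listed loci. All members are 1.29% of the listed loci.

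The rule has an edge that the members near it show. In ELP, UGT74E2 and AT3G51510 the largest of the 4 q-values lay nearest to the limit of 0.05, at 0.0423, 0.0418 and 0.0457. Outside it, 184 loci fell in 3 settings and were not listed in the fourth, 107 of them missing in sku5 ground roots, 48 in WS spaceflight, 15 in sku5 spaceflight and 14 in WS ground roots. A further 2 loci were listed in all 4 tables and rose in 1. AT1G13340 rose in sku5 ground roots, with 7.99 FPKM at 8 d against 2.58 FPKM at 4 d, and fell in the other settings, with 10.2 against 91.8 FPKM in sku5 spaceflight roots. DI19, a zinc finger protein of drought response, rose in WS spaceflight roots, with 317 FPKM at 8 d against 238 FPKM at 4 d, and fell in the others, with 202 against 274 FPKM in WS ground roots. In all, 161 loci were listed in the 4 age tables, of which 89 rose in each, and 1823 fell in at least 1.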

How the data were processed

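Roots of 32 samples, 4 in each of 8 groups, were measured by RNA-seq from total RNA. Per the submitters' processing notes, the tools were STAR 2.5.1b, Trimmomatic 0.36, Cuffdiff, Cufflinks, Picard and FastQC 0.11.2, with no genome build named in the sources used here. Values come from 11 tables the authors deposited, each a Cuffdiff comparison of a pair of groups. Per the file headers they hold an FPKM value per group, a log2 fold change, a test statistic (a signed score) and a p-value with its q-value, all computed by the authors. The p-values deposited are never below 5e-05. Only called loci are listed, so tests, outlier checks and repeats from separate libraries could not be made, and the count of loci tested by the authors is unknown. The FPKM values of a group are scaled differently in the deposited tables, by at most 10.8%.

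Fold changes were turned to 8 d over 4 d, spaceflight over ground and sku5 over WS. The standard error is the fold change divided by the score, with a median between 0.279 and 0.532 over the tables. Genes were matched by identifier to RefSeq TAIR10.1. Of 4446 single-gene loci found there, 276 (6.21%) overlap the reference gene of the same identifier in position, so coordinates were not mixed. The scripts, in Python 3.11.15 with pandas 2.3.3, were tested on simulated data. The members and all gene lists, motifs and roles were chosen with earlier results of these data known. Named are the 20 largest mean falls, the 10 highest 4 d levels, members called in 3 spaceflight or 2 genotype tables, the 3 largest q-values, the 3 smallest falls and up to 4 members per list. Other genes named, and the promoters shown, were chosen after their values were seen. Where nothing says that samples came from separate cultures, p-values measure the spread between these samples alone.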

Additional observations from a re-analysis of the deposited data

Results flagged for a closer look

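Some members were called in opposite directions under the same contrast, and none of these differences was itself tested. For spaceflight they are 3.17% of the members, against 1.64% of all listed loci. For genotype the share of all listed loci called both ways was not computed, so nothing is read from their number. In the authors' deposited tables, RR3 was higher in spaceflight in WS at 8 d, with a log2 fold change of 1.35, and lower in sku5 at 8 d, with -0.61. For genotype, RR3 was higher in sku5 on the ground at 8 d (1.17) and lower in spaceflight (-0.79). These 4 values use the same 4 groups, so the spaceflight and the genotype pattern are the same numbers read in different ways. FRD3 was lower in spaceflight in WS at 4 d (-0.90) and higher in sku5 at 8 d (0.50), groups that differ in age as well as genotype.

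GRP-3 was higher in sku5 on the ground at 4 d (1.48) and lower in spaceflight at 8 d (-2.16), MT2A likewise (0.71 and -0.59), and MLS in the opposite sense (-1.94 and 1.96). The mitochondrial locus XLOC_032085 was higher in sku5 on the ground at 8 d (0.82) and lower in spaceflight at 8 d (-0.45), as was XLOC_032109 (0.82 and -0.42). Both had their lowest values in the WS ground roots of 8 d, where 11 of 13 mitochondrial loci were called lower than at 4 d.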

How the results depend on the processing

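No paired analysis was possible because the deposited tables hold values per group and no replicate columns, and leaving out each replicate was not run for the same reason. The 63 loci became 34 at a q-value under 0.01, 31 at a fall of at least 2-fold, 110 without the WS spaceflight age table and 170 without the sku5 ground age table, which gives the shortest list of falling loci. At 2-fold the median log2 fold changes were -1.96 in WS spaceflight, -2.47 in sku5 spaceflight and -1.95 in sku5 ground roots. For the calls, all 63 members were kept and the limit was set on the spaceflight or genotype difference itself. With it at least 2-fold, 4 were called for spaceflight in WS and 10 in sku5 at 4 d. At 8 d they were 7 and 6. For genotype they were 7 and 3 on the ground at 4 d and 8 d, and 6 in spaceflight. With the difference at a q-value under 0.01, 0 were called for spaceflight in WS at 4 d, where the smallest q-value is 0.0113. In sku5 at 8 d 10 were called, and for genotype in spaceflight 10. In the smaller sets, members falling less in spaceflight numbered 17 of 34 in WS and 17 of 34 in sku5 at a q-value under 0.01. At 2-fold they numbered 13 of 31 and 12 of 31. Of 85 recomputed values these 21 moved by over 1.5 times (counts) or over a standard error (medians), and 64 did not. Counts cannot change sign and the medians are negative by the rule, so a reversal could not appear. Which side held the majority did change, from 34 of 63 members falling less in WS spaceflight to 13 of 31 at 2-fold. In sku5 it went from 31 of 63 to 36 of 69 with the left-out loci put back. The 64 cover single-gene loci, a 4 d minimum of 5 FPKM, the 6 left-out loci put back, genes matched by identifier and pseudocounts of 1 and 0.1. Depth per library is unknown.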

Other observations

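Some members were called for age alone. By the authors' deposited tables, a set of 21 of the 63 loci was called for age in all 4 settings and for neither spaceflight nor genotype in any table. At 33.3%, their share is near the 34.9% among the 1760 other loci that fell in at least 1 age table. They include CPL3 of root hair formation, GH3.3 of auxin conjugation, NAS4 of nicotianamine synthesis, LTP1, FLA13, PSBQ-2, DOX1, NSP5, CP1 and UGT76E2. Not being called does not show that these loci did not differ, since values of loci that were not called are not listed.

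At both ages the median member differed about as much between its highest and its lowest setting, by 1.62-fold at 8 d and 1.63-fold at 4 d. The widest span at 8 d was 7.64-fold, and the widest at 4 d was 23.7-fold, that of MLS.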
